A study of Homo sapiens with 21 samples.

Results

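Transcripts of HMOX1 and 9 further genes of the NRF2 antioxidant pathway were followed in MM.1S, a human multiple myeloma cell line grown from peripheral blood. The genes were taken by name: NFE2L2, its repressors KEAP1 and BACH1, the heme and iron genes HMOX1 and FTH1, and the antioxidant enzyme genes NQO1, GCLC, GCLM, SRXN1 and TXNRD1. They are 10 of the 17691 genes in the table, and all 10 were among the 12559 genes tested, which reached 1 TPM (a transcript level scaled by gene length and to the library total) in 3 or more libraries. The series has 21 mRNA libraries, 3 for each of 7 groups. Untreated cells formed 1 group, and cells given pomalidomide at 1 µM were collected after 24, 48 and 72 h. Hairpins against ARID2 or Aiolos were delivered by lentivirus 72 h before collection, and cells labelled control knockdown form the last group. The genotype label is wild type for untreated and drug-treated cells and names the knockdown for the hairpin groups, which had no drug.

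Pomalidomide binds the ubiquitin ligase receptor cereblon and causes degradation of the transcription factors Ikaros and Aiolos in myeloma cells. ARID2 is a subunit of PBAF, a chromatin remodelling complex. For the control knockdown neither hairpin nor collection time is stated, and no untreated cells were collected at each drug time, so time in drug and time in culture cannot be told apart. The ARID2 transcript stood at 12.4, 12.2 and 12.1 TPM in ARID2 knockdown cells, against 25.999, 25.4 and 25.4 TPM in control knockdown cells, a log2 fold change of -1.01 ± 0.07 (adjusted p = 8.14e-11). In libraries that carry the Aiolos knockdown label, IKZF3, the gene of Aiolos, had 127, 121 and 141 TPM, against 83.5, 79.2 and 81.4 TPM in control knockdown cells. Control knockdown was the lowest of the 7 groups for IKZF3. It averaged 120 TPM in ARID2 knockdown cells, 96.4 TPM in untreated cells and 115, 123 and 112 TPM at 24, 48 and 72 h of drug. The IKZF3 transcript goes against the Aiolos label, and the protein was not measured. Directions drawn from the 3 libraries with that label, called the labelled Aiolos libraries below, therefore rest on their label. Here and below ± after a fold change on the log2 scale is its standard error, ± after a TPM mean is the SD over 3 libraries, and adjusted p-values come from limma.

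NRF2, the product of NFE2L2, pairs with small MAF proteins and activates genes through antioxidant response elements. KEAP1 holds NRF2 and presents it to a ubiquitin ligase until oxidants or electrophiles modify KEAP1, while BACH1 occupies the same elements as a repressor and leaves them when heme is abundant. HMOX1 is one of the genes most strongly held down by BACH1, and myeloma cells, which secrete large amounts of disulfide-bonded immunoglobulin, depend on thiol and glutathione chemistry. Much of this control acts on protein, so transcripts of NFE2L2 and KEAP1 do not report NRF2 activity.

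To show what the elements look like at these genes, promoter windows were read from RefSeq on GRCh38.p14. Each runs from 250 bases before to 50 bases after a listed start. A gene can have several starts, some inside the gene span given below, as for the TXNRD1 window from 104286782 to 104287081. The set has 13 windows for 8 of the genes and no entry for HMOX1 or FTH1. The core letters TGACNNNGC were searched on both strands and occurred in 4 of the 13 windows, which belong to GCLM, TXNRD1 and KEAP1, and in 13.3% of all 35116 promoters. The 6 matches are shown with 16 bases on either side, written on the strand that carries the core, with the core in capitals. The KEAP1 stretches as printed overlap each other, but their cores do not.
GCLM, chr1:93909440-93909480, plus strand: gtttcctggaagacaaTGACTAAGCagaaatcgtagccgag
TXNRD1, chr12:104215664-104215704, plus strand: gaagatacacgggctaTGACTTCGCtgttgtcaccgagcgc
TXNRD1, chr12:104215755-104215795, minus strand: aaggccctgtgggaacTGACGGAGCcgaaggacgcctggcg
TXNRD1, chr12:104286914-104286954, minus strand: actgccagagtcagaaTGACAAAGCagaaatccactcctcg
KEAP1, chr19:10502801-10502841, minus strand: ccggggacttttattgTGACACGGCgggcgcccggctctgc
KEAP1, chr19:10502778-10502818, plus strand: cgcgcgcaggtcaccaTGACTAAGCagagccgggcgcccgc
The GCLM and one KEAP1 window hold the same core, TGACTAAGC. None of the 6 overlaps the related letters TGANTCA, which occurred in 1 of the 13 windows and in 7.71% of all promoters. A match is a description of letters only, and binding was not measured.

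**Figure D1:**
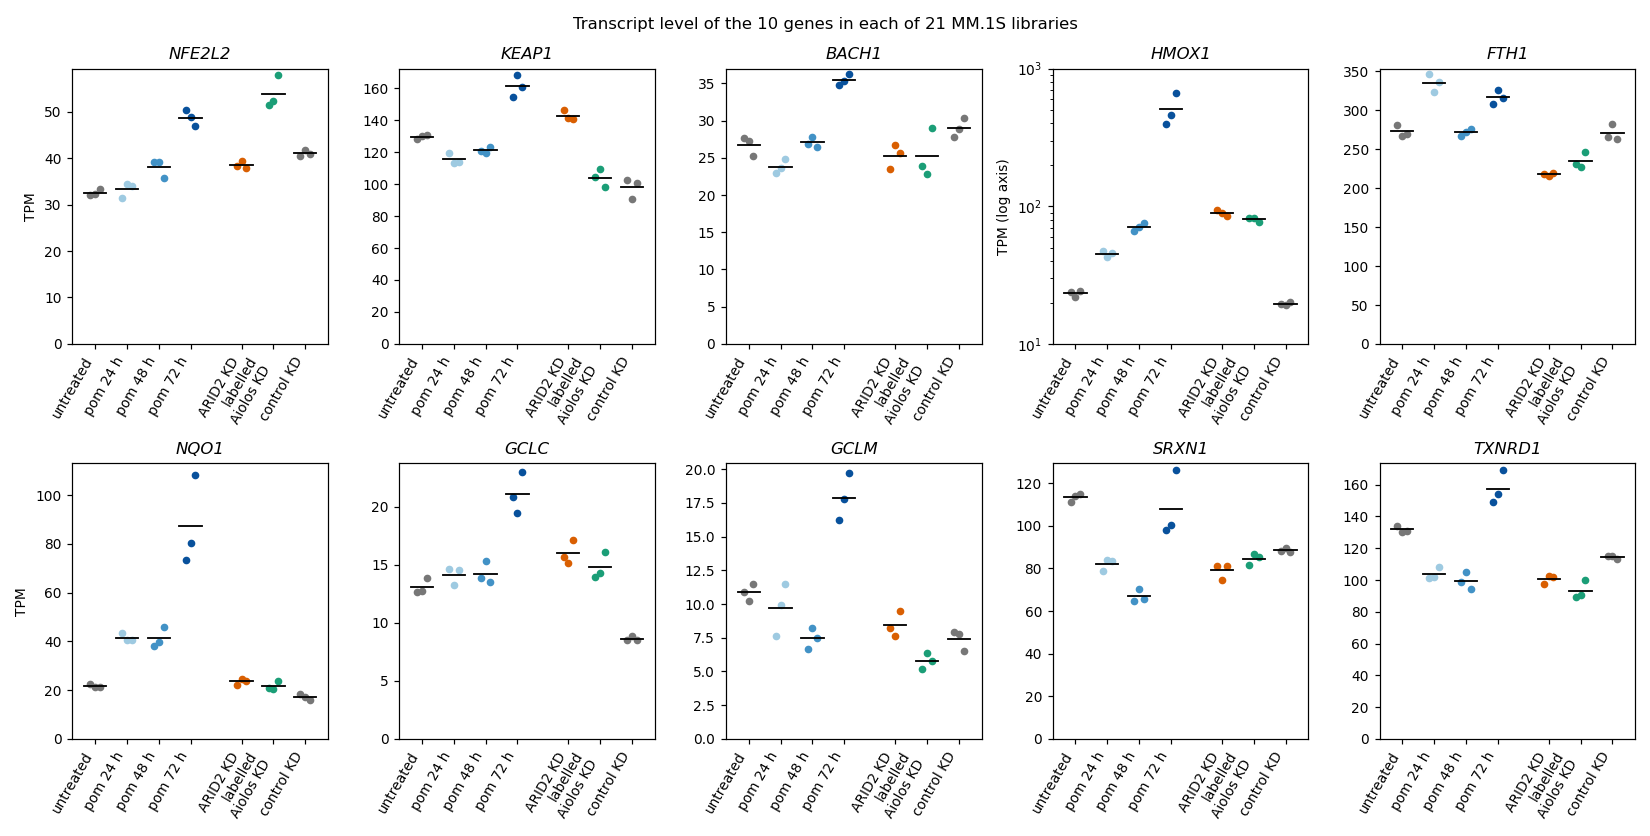
TPM of each of the 10 genes in every library (points) with group means (bars), drug times on the left of each panel and knockdown groups on the right; HMOX1 is on a log axis. HMOX1 climbs at each drug time to between 394 and 669 TPM at 72 h, and 7 of the other genes also have their highest drug-series mean at 72 h, while SRXN1 and FTH1 have theirs in untreated cells and at 24 h.

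HMOX1 encodes heme oxygenase 1, the inducible enzyme that opens heme and releases iron, carbon monoxide and biliverdin, and its gene spans 35380361 to 35394214 of chromosome 22 on the plus strand of GRCh38. It stood at 23.7, 22.0 and 24.1 TPM in untreated cells and at 47.2, 42.5 and 45.6 TPM after 24 h of pomalidomide. After 48 h it stood at 66.3, 71.0 and 76.0 TPM, and after 72 h at 394, 461 and 669 TPM. Every later time lay above every library of the time before it, and most of the climb fell between 48 and 72 h. Mean HMOX1 at 72 h was 508 ± 143 TPM, 21.8 times that of untreated cells (23.3 ± 1.15 TPM) and 7.14 times that at 48 h (71.1 ± 4.86 TPM).

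On the log2 scale HMOX1 rose by 0.92 ± 0.12 at 24 h (adjusted p = 7.38e-07), by 1.57 ± 0.12 at 48 h (adjusted p = 1.29e-10) and by 4.35 ± 0.12 at 72 h (adjusted p = 7.90e-18), each against untreated cells. Ranked by fold among the 12559 genes, its rise was number 751 at 24 h, number 485 at 48 h and number 11 at 72 h. Between 48 and 72 h its rise of 2.79 ± 0.12 (adjusted p = 4.41e-13) was the largest of all genes tested. The 72 h libraries spread most for HMOX1, with a coefficient of variation of 28.2%, against 2.85% to 6.83% in the other 6 groups. Leaving out each library in turn gave rises between 4.14 and 4.52 at 72 h and between 2.57 and 2.95 from 48 to 72 h.

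HMOX1 was also higher in the hairpin groups. It stood at 94.4, 88.6 and 84.6 TPM in ARID2 knockdown cells, at 82.7, 81.8 and 76.7 TPM in the labelled Aiolos libraries, and at 19.4, 19.3 and 20.3 TPM in control knockdown cells. Neither hairpin group overlapped the control. The rise was 2.13 ± 0.12 with the ARID2 hairpin (4.54 times the control mean, adjusted p = 4.18e-12) and 1.98 ± 0.12 in the labelled Aiolos libraries (4.09 times, adjusted p = 7.19e-12). In rank of rise these were number 19 and number 54 among all genes.

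From lowest to highest, HMOX1 ran through control knockdown (19.6 TPM), untreated (23.3), 24 h (45.1), 48 h (71.1), labelled Aiolos knockdown (80.4), ARID2 knockdown (89.2) and 72 h (508), and no neighbouring groups overlapped. Even so, ARID2 knockdown and the labelled Aiolos libraries differed by 0.15 ± 0.12 (adjusted p = 0.274), and control knockdown and untreated cells by -0.23 ± 0.12 (adjusted p = 0.108). The fit pools the spread of all 7 groups. Fitted with only the groups compared, both differences passed (adjusted p = 0.0409 and 0.00688). The drug effect at 72 h exceeded that of the ARID2 hairpin by 2.23 ± 0.16 (adjusted p = 2.44e-10) and that of the labelled Aiolos libraries by 2.37 ± 0.16 (adjusted p = 1.11e-10), each effect against its own control.

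HMOX2, the constitutive heme oxygenase, did not follow. It averaged 42.2 ± 2.81 TPM at 72 h against 55.8 ± 2.42 TPM in untreated cells, a fall of 0.40 ± 0.05 (adjusted p = 2.10e-07). In untreated cells HMOX1 stood below HMOX2, at a ratio of 0.417 ± 0.00474 TPM. The ratio reached 1.13 ± 0.0350 at 24 h, 1.81 ± 0.156 at 48 h and 12.2 ± 4.16 at 72 h. It was 1.52 ± 0.0548 in ARID2 knockdown cells and 1.86 ± 0.0205 in the labelled Aiolos libraries, against 0.402 ± 0.0106 in control knockdown cells. With the ARID2 hairpin HMOX2 rose (0.26 ± 0.05, adjusted p = 9.83e-05) and in the labelled Aiolos libraries it fell (-0.17 ± 0.05, adjusted p = 0.00325).

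**Figure D2:**
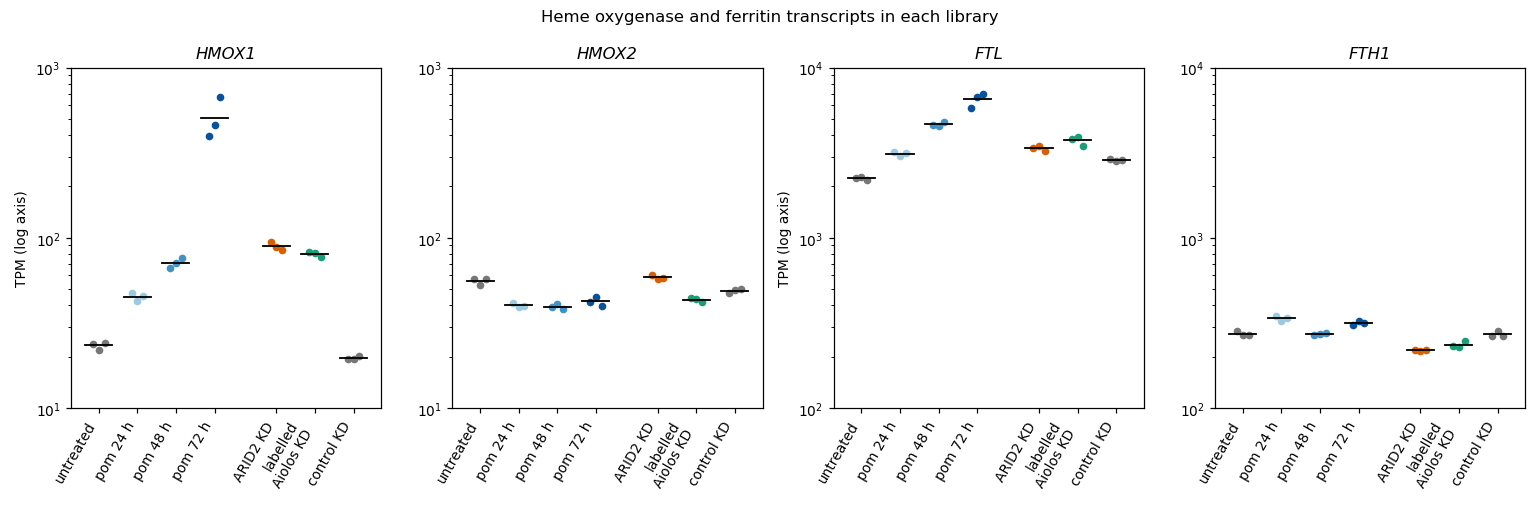
TPM on log axes of HMOX1, HMOX2, FTL and FTH1 in each library (points) with group means (bars). HMOX1 passes HMOX2 under drug and in both hairpin groups, and FTL climbs with time while FTH1 stays between 215 and 347 TPM.

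Among the 10 genes, 3 rose and 4 fell at 24 h against untreated cells, where 35.1% of all genes tested rose and 31% fell. At 48 h 3 rose and 3 fell, against 43.8% and 34.8% of all genes. At 72 h 9 rose and none fell, against 48.1% and 31.6% of all genes, and the other gene, SRXN1, stood at -0.08 ± 0.07 (adjusted p = 0.282). TPM is a share of the library, and the median gene moved by 0.15 at 72 h. Median-of-ratios scaling brought that median to 0.0059 and the calls over all genes to 4900 higher and 4925 lower, from 6047 and 3970. With it 7 of the 10 genes rose at 72 h, SRXN1 fell (-0.24, adjusted p = 0.00234), and FTH1 (0.05, adjusted p = 0.211) and TXNRD1 (0.09, adjusted p = 0.0682) did not pass.

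In the step from 48 to 72 h all 10 genes rose, where 31.6% of all genes tested rose and 16.5% fell. The rises ran from 0.22 ± 0.04 for FTH1 to 2.79 ± 0.12 for HMOX1. GCLM (1.16 ± 0.12) was number 22 and NQO1 (1.05 ± 0.10) number 29 among all genes ranked by rise. All 10 still passed under each scaling tried and with each library left out. Over all genes, median-of-ratios scaling changed the calls in this step to 2523 higher and 2953 lower, and quantile normalization to 2901 and 2543, from 3967 and 2067. From 24 to 48 h, by contrast, 3 of the genes rose and 3 fell, against 32.1% and 26.1% of all genes.

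**Figure D3:**
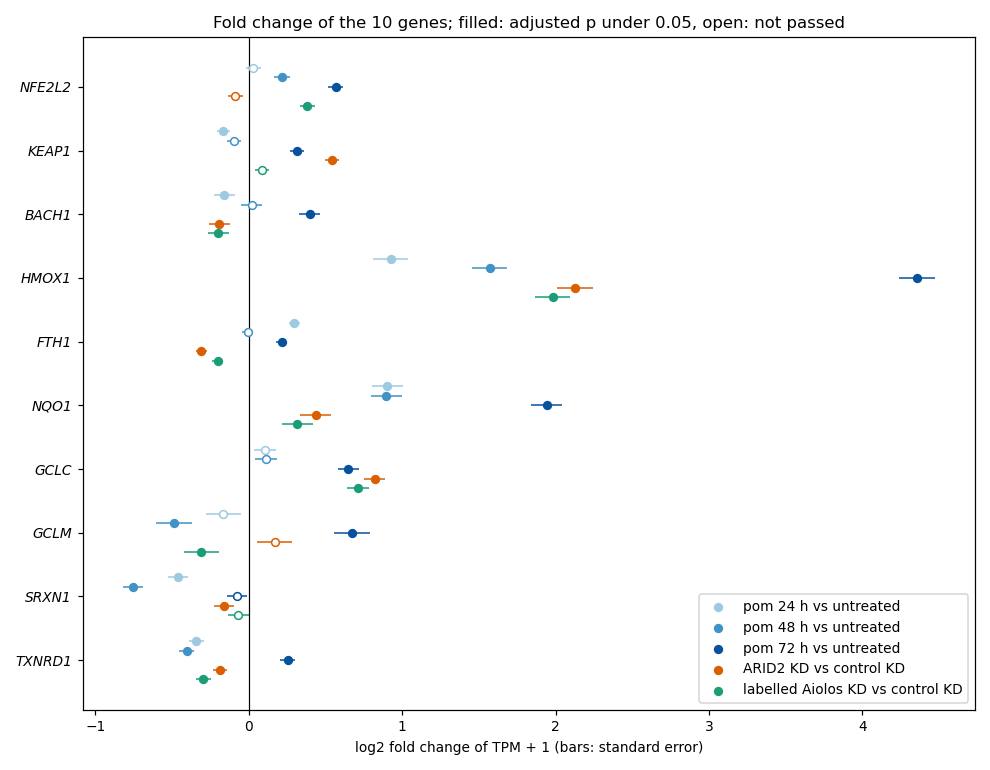
Log2 fold change of TPM + 1 with standard errors (bars) for each of the 10 genes in 5 comparisons; filled points passed at an adjusted p under 0.05 and open points did not. HMOX1 lies farthest to the right in every comparison, at 4.35 for 72 h of drug, and SRXN1 and TXNRD1 lie left of 0 at 24 and 48 h.

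NFE2L2, on chromosome 2 from 177227595 to 177392697 (minus strand), rose gradually. It stood at 32.1, 32.3 and 33.4 TPM in untreated cells, at 31.4, 34.4 and 34.1 TPM after 24 h, at 39.2, 39.1 and 35.8 TPM after 48 h and at 50.4, 48.8 and 46.9 TPM after 72 h. The 24 h libraries overlapped the untreated ones (0.03 ± 0.05, adjusted p = 0.607), and the later ones lay above both. The rise was 0.22 ± 0.05 at 48 h (adjusted p = 0.000500) and 0.57 ± 0.05 at 72 h (adjusted p = 1.88e-09). Among the hairpin groups it was highest in the labelled Aiolos libraries, at 51.4, 52.2 and 57.9 TPM. It stood at 38.3, 39.5 and 37.9 TPM in ARID2 knockdown cells and at 40.5, 41.7 and 40.9 TPM in control knockdown cells. NFE2L2 thus rose in the labelled Aiolos libraries (0.38 ± 0.05, adjusted p = 9.45e-07) and stood at -0.09 ± 0.05 in ARID2 knockdown cells (adjusted p = 0.127). That NFE2L2 value passed as a fall under median-of-ratios scaling (-0.12, adjusted p = 0.0227) and in the fit of only the groups compared (adjusted p = 0.0421).

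KEAP1, on chromosome 19 from 10486120 to 10503741 (minus strand), showed the other order in the hairpin groups. It stood at 147, 141 and 141 TPM in ARID2 knockdown cells, at 105, 109 and 98.4 TPM in the labelled Aiolos libraries and at 102.5, 90.8 and 101 TPM in control knockdown cells. Only the ARID2 knockdown libraries cleared the control, with a rise of 0.54 ± 0.04 (adjusted p = 2.02e-09), and the value in the labelled Aiolos libraries was 0.09 ± 0.04 (adjusted p = 0.0912), which passed without control replicate 1 or labelled Aiolos replicate 3 (0.12 and 0.13) and under quantile normalization (0.11). Under drug KEAP1 stood at 128, 129.8 and 131 TPM in untreated cells, at 119.5, 113 and 114 TPM after 24 h, at 121, 119 and 123 TPM after 48 h and at 155, 168 and 161 TPM after 72 h. It fell at 24 h (-0.17 ± 0.04, adjusted p = 0.00279; -0.09 and not passed under quantile normalization), was at -0.10 ± 0.04 at 48 h (adjusted p = 0.0564) and rose at 72 h (0.31 ± 0.04, adjusted p = 2.09e-06). The KEAP1 value at 48 h passed as a fall under median-of-ratios scaling (-0.17, adjusted p = 0.00285) and in the fit of only the groups compared (adjusted p = 0.00941), and quantile normalization turned it to 0.03 (adjusted p = 0.526).

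The KEAP1 to NFE2L2 ratio, in TPM, was 3.98 ± 0.0554 in untreated cells and 3.48 ± 0.285, 3.19 ± 0.216 and 3.32 ± 0.214 at 24, 48 and 72 h. It was 3.71 ± 0.129 in ARID2 knockdown cells and 1.94 ± 0.213 in the labelled Aiolos libraries, against 2.39 ± 0.187 in control knockdown cells. The ratio was thus highest in untreated cells and lowest in the labelled Aiolos libraries, whose 3 libraries lay below every control library (1.70 to 2.09 against 2.18 to 2.53).

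BACH1, on chromosome 21 from 29194071 to 29630751 (plus strand), was highest at 72 h. It stood at 27.6, 27.2 and 25.3 TPM in untreated cells, at 23.0, 23.6 and 24.8 TPM after 24 h, at 26.9, 27.8 and 26.5 TPM after 48 h and at 34.8, 35.4 and 36.3 TPM after 72 h. The 72 h libraries lay above all others in the series, with a rise of 0.40 ± 0.07 over untreated cells (adjusted p = 2.37e-05). The fall at 24 h (-0.16 ± 0.07, adjusted p = 0.0459) no longer passed when untreated replicate 1 or 2, or 24 h replicate 1 or 2, was left out (-0.14, -0.15, -0.14 and -0.16), or with no filter on low values (adjusted p = 0.0647). BACH1 stood at 23.6, 26.7 and 25.6 TPM in ARID2 knockdown cells, at 23.9, 22.8 and 29.03 TPM in the labelled Aiolos libraries and at 27.7, 28.9 and 30.3 TPM in control knockdown cells. Both falls, -0.19 ± 0.07 (adjusted p = 0.0201) with the ARID2 hairpin and -0.20 ± 0.07 (adjusted p = 0.0147) in the labelled libraries, were lost without control replicate 3 (-0.16 and -0.17). They were also lost without ARID2 replicate 1 (-0.14) and without labelled Aiolos replicate 1 or 2 (-0.16 and -0.13), and the second in the fit of only the groups compared (adjusted p = 0.0835).

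FTH1 encodes the heavy chain of ferritin, which oxidises and stores iron, and lies on chromosome 11 from 61959718 to 61967660 (minus strand). It stood at 281, 268 and 269.7 TPM in untreated cells, at 347, 323 and 336 TPM after 24 h, at 267, 272 and 276 TPM after 48 h and at 308, 326 and 316 TPM after 72 h. Its highest drug time was thus 24 h, where it rose by 0.30 ± 0.04 (adjusted p = 5.18e-07). The rise at 72 h was 0.21 ± 0.04 (adjusted p = 1.96e-05), and the value at 48 h was -0.01 ± 0.04 (adjusted p = 0.889), which quantile normalization turned to 0.10 (adjusted p = 0.0120) and median-of-ratios scaling to -0.08 (adjusted p = 0.0437). In the hairpin groups FTH1 was lower than the control: 219, 215 and 219.6 TPM in ARID2 knockdown cells and 231, 227 and 246 TPM in the labelled Aiolos libraries, against 266, 283 and 263 TPM in control knockdown cells. Neither overlapped the control, with falls of 0.31 ± 0.04 (adjusted p = 3.01e-07) and 0.20 ± 0.04 (adjusted p = 5.09e-05).

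FTL, the light chain that completes the ferritin shell, did not share that pattern. It averaged 2236 ± 41.9 TPM in untreated cells, 3118 ± 102 at 24 h, 4638 ± 136 at 48 h and 6504 ± 642 at 72 h, a rise of 1.54 ± 0.05 at 72 h (adjusted p = 5.71e-16). It also rose in ARID2 knockdown cells (0.22 ± 0.05, adjusted p = 0.00115) and in the labelled Aiolos libraries (0.38 ± 0.05, adjusted p = 2.89e-06). The FTL to FTH1 ratio was 8.20 ± 0.267 in untreated cells and 9.30 ± 0.0422, 17.1 ± 0.405 and 20.5 ± 1.70 at 24, 48 and 72 h. It was 15.4 ± 0.660 in ARID2 knockdown cells and 15.9 ± 1.60 in the labelled Aiolos libraries, against 10.6 ± 0.526 in control knockdown cells. Ferritin genes have many near-identical pseudogene copies, and both levels are uncertain if the quantifier split reads between them.

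NQO1 encodes a quinone reductase widely used as a readout of NRF2, and lies on chromosome 16 from 69706996 to 69726951 (minus strand). It stood at 22.5, 21.2 and 21.4 TPM in untreated cells, at 43.4, 40.6 and 40.5 TPM after 24 h, at 38.0, 39.9 and 46.0 TPM after 48 h and at 73.6, 80.3 and 108 TPM after 72 h. It rose in a first step by 24 h, was level from 24 to 48 h within the spread of the libraries (-0.01 ± 0.10, adjusted p = 0.947), and rose again by 72 h. Against untreated cells the rises were 0.90 ± 0.10 at 24 h (adjusted p = 1.60e-07), 0.89 ± 0.10 at 48 h (adjusted p = 9.24e-08) and 1.94 ± 0.10 at 72 h (adjusted p = 4.87e-13), the last 4.03 times the untreated mean. NQO1 stood at 22.2, 24.6 and 23.9 TPM in ARID2 knockdown cells, at 21.01, 20.3 and 23.6 TPM in the labelled Aiolos libraries and at 18.3, 17.3 and 15.96 TPM in control knockdown cells. The rises there were smaller, at 0.44 ± 0.10 with the ARID2 hairpin (adjusted p = 0.000906) and 0.31 ± 0.10 in the labelled libraries (adjusted p = 0.00963), and the second was lost without labelled Aiolos replicate 3 (0.25, adjusted p = 0.0515). The drug effect at 72 h exceeded them by 1.51 ± 0.14 (adjusted p = 1.19e-08) and 1.63 ± 0.14 (adjusted p = 4.81e-09). Both hairpin rises were set against a control that itself lay 0.32 ± 0.10 below untreated cells (adjusted p = 0.0134). The libraries of both hairpin groups overlapped the untreated ones.

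GCLC and GCLM encode the catalytic and the modifier subunit of glutamate-cysteine ligase, which limits the rate of glutathione synthesis. GCLC, on chromosome 6 from 53497341 to 53616970 (minus strand), stood at 12.7, 12.7 and 13.8 TPM in untreated cells, at 14.6, 13.3 and 14.6 TPM after 24 h, at 13.8, 15.3 and 13.5 TPM after 48 h and at 20.9, 19.5 and 23.0 TPM after 72 h. Its 3 earlier groups overlapped and the 72 h libraries stood apart, with a rise of 0.65 ± 0.07 (adjusted p = 6.04e-08). GCLC stood at 15.6, 15.2 and 17.1 TPM in ARID2 knockdown cells, at 13.9, 14.3 and 16.1 TPM in the labelled Aiolos libraries and at 8.49, 8.87 and 8.48 TPM in control knockdown cells. The rises of 0.82 ± 0.07 (adjusted p = 4.87e-09) and 0.71 ± 0.07 (adjusted p = 2.61e-08) were set against a control that itself lay 0.55 ± 0.07 below untreated cells (adjusted p = 3.36e-06). The drug effect at 72 h differed from them by -0.17 ± 0.10 (adjusted p = 0.141) and -0.06 ± 0.10 (adjusted p = 0.598), although both scalings made the first pass (-0.30 and -0.23).

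GCLM, on chromosome 1 from 93885205 to 93909456 (minus strand), went the other way before it rose. It stood at 10.9, 10.2 and 11.5 TPM in untreated cells, at 7.64, 9.95 and 11.5 TPM after 24 h, at 6.70, 8.22 and 7.50 TPM after 48 h and at 16.2, 17.8 and 19.7 TPM after 72 h. The 48 h libraries lay below all untreated ones and the 72 h libraries above all of them. It fell by 0.49 ± 0.12 at 48 h (adjusted p = 0.000825) and rose by 0.67 ± 0.12 at 72 h (adjusted p = 2.92e-05), and the value at 24 h was -0.17 ± 0.12 (adjusted p = 0.223), or -0.28 and past the threshold without 24 h replicate 3. GCLM stood at 8.22, 7.62 and 9.48 TPM in ARID2 knockdown cells, at 5.21, 6.36 and 5.78 TPM in the labelled Aiolos libraries and at 7.90, 7.81 and 6.50 TPM in control knockdown cells. The ARID2 group overlapped the control (0.17 ± 0.12, adjusted p = 0.224), and the labelled group lay below it (-0.31 ± 0.12, adjusted p = 0.0254), a call lost without control replicate 1 or 2 or labelled Aiolos replicate 1 (-0.27, -0.27 and -0.25). The GCLM to GCLC ratio was 0.830 ± 0.0289 TPM in untreated cells, then 0.686 ± 0.143, 0.526 ± 0.0372 and 0.848 ± 0.0682 at 24, 48 and 72 h. It was 0.527 ± 0.0263 in ARID2 knockdown cells and 0.392 ± 0.0465 in the labelled Aiolos libraries, against 0.859 ± 0.0842 in control knockdown cells.

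SRXN1 encodes sulfiredoxin, which restores overoxidised peroxiredoxins, and lies on chromosome 20 from 646615 to 653370 (minus strand). It stood at 111, 114 and 115 TPM in untreated cells, at 78.7, 83.8 and 83.6 TPM after 24 h, at 64.8, 70.2 and 65.6 TPM after 48 h and at 97.8, 100.2 and 126 TPM after 72 h. All libraries at 24 and 48 h lay below the untreated ones, and at 72 h 2 lay below and 1 above them. SRXN1 fell by 0.46 ± 0.07 at 24 h (adjusted p = 3.92e-06) and by 0.75 ± 0.07 at 48 h (adjusted p = 1.90e-09). The 72 h value rests on replicate 3: without it SRXN1 lay at -0.19 (adjusted p = 0.000751). SRXN1 stood at 81.3, 74.6 and 81.2 TPM in ARID2 knockdown cells, at 81.4, 86.6 and 85.6 TPM in the labelled Aiolos libraries and at 88.3, 89.7 and 87.9 TPM in control knockdown cells. The fall with the ARID2 hairpin (-0.16 ± 0.07, adjusted p = 0.0369) was lost without any of the 3 control replicates or ARID2 replicate 2 (-0.17 to -0.12), under quantile normalization (-0.12) and with no filter (adjusted p = 0.0598), and the labelled libraries were at -0.07 ± 0.07 (adjusted p = 0.374).

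TXNRD1 encodes cytosolic thioredoxin reductase, the selenoprotein that keeps thioredoxin reduced, and lies on chromosome 12 from 104215779 to 104350305 (plus strand). It stood at 134, 130.4 and 131 TPM in untreated cells, at 101, 102 and 108 TPM after 24 h, at 99.0, 105 and 94.6 TPM after 48 h and at 149, 154 and 169 TPM after 72 h. As with SRXN1, the 24 and 48 h libraries all lay below the untreated ones, but the 72 h libraries all lay above them. TXNRD1 fell by 0.34 ± 0.05 at 24 h (adjusted p = 3.81e-06) and by 0.40 ± 0.05 at 48 h (adjusted p = 2.32e-07) and rose by 0.25 ± 0.05 at 72 h (adjusted p = 9.18e-05). It stood at 97.2, 102 and 102 TPM in ARID2 knockdown cells, at 89.5, 90.4 and 100.1 TPM in the labelled Aiolos libraries and at 115, 115 and 113 TPM in control knockdown cells. Neither hairpin group overlapped the control, with falls of 0.19 ± 0.05 (adjusted p = 0.00233) and 0.30 ± 0.05 (adjusted p = 2.12e-05).

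With the ARID2 hairpin 4 of the 10 genes rose (HMOX1, GCLC, KEAP1 and NQO1) and 4 fell (FTH1, BACH1, TXNRD1 and SRXN1), against 33.1% and 29.2% of all genes tested. In the labelled Aiolos libraries 4 rose (HMOX1, GCLC, NFE2L2 and NQO1) and 4 fell (GCLM, TXNRD1, FTH1 and BACH1), against 37.2% and 30.7%. These counts share the control libraries and lie near the shares over all genes. Between ARID2 knockdown and the labelled Aiolos libraries, 2 genes were higher (GCLM by 0.48 ± 0.12 and KEAP1 by 0.45 ± 0.04) and 2 lower (NFE2L2 by -0.47 ± 0.05 and FTH1 by -0.11 ± 0.04), against 30.2% and 35.7% of all genes. The FTH1 difference was lost without labelled Aiolos replicate 3 (-0.07) and under median-of-ratios scaling (-0.08). TXNRD1 (0.11 ± 0.05, adjusted p = 0.0592) passed under both scalings (0.14 and 0.13) and without ARID2 replicate 1 or labelled Aiolos replicate 3 (0.13 and 0.16), and GCLC (0.11 ± 0.07, adjusted p = 0.200) passed under quantile normalization (0.16). The drug effect at 72 h differed from that of the ARID2 hairpin for 8 of the 10 genes, where 69.5% of all genes differed. It differed from that of the labelled Aiolos libraries for 8 genes, where 63% of all genes differed.

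The 2 controls were not alike for these genes. In control knockdown cells against untreated cells, NFE2L2 alone rose (0.32 ± 0.05, adjusted p = 2.16e-05) and 6 genes fell, where 17.3% of all genes rose and 28.4% fell. GCLC averaged 8.61 ± 0.221 TPM in control knockdown cells against 13.1 ± 0.657 TPM in untreated cells, and GCLM fell by 0.50 ± 0.12 (adjusted p = 0.00161). KEAP1 fell by 0.40 ± 0.04 (adjusted p = 4.52e-07), SRXN1 by 0.35 ± 0.07 (adjusted p = 0.000203), NQO1 by 0.32 ± 0.10 (adjusted p = 0.0134) and TXNRD1 by 0.20 ± 0.05 (adjusted p = 0.00209). The NQO1 fall was lost without control replicate 3 (-0.27), and the TXNRD1 fall under quantile normalization (-0.12), which made a rise of BACH1 pass (0.17, adjusted p = 0.0421). Effects of hairpins and drug are therefore each read against their own control.

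In the list of partners and relatives of NRF2 and BACH1, most genes rose in both later drug steps. At 24 h against untreated cells 1 of 6 tested genes rose and 4 fell, where 35.1% of all genes rose and 31% fell. From 24 to 48 h 5 of 6 tested genes rose and none fell, where 32.1% of all genes rose and 26.1% fell. The list median was 0.33 against 0.04 over all genes. MAFF rose by 0.90 ± 0.08 and BACH2 by 0.84 ± 0.06. MAFK did not rise in that step (17.8 ± 1.11 TPM at 48 h against 18.9 ± 1.30 TPM at 24 h). From 48 to 72 h 6 of the 6 tested genes of that list rose, among them MAFG (129 ± 7.23 against 76.6 ± 2.53 TPM), MAFF (19.8 ± 0.294 against 13.4 ± 0.0114 TPM) and MAFK (24.3 ± 0.219 against 17.8 ± 1.11 TPM), the small MAF proteins that pair with NRF2 and BACH1. The list median was 0.33, against 0.06 over all genes, of which 31.6% rose and 16.5% fell. At 72 h against untreated cells 4 rose and 2 fell, where 48.1% of all genes rose and 31.6% fell. BACH2, a B-cell relative of BACH1, averaged 27.8 ± 0.336 against 6.80 ± 0.544 TPM (1.88 ± 0.06). NFE2L3, a relative of NFE2L2, averaged 107 ± 2.41 against 164 ± 4.02 TPM (-0.61 ± 0.04). MAFK was also still lower than in untreated cells, at 24.3 ± 0.219 against 29.2 ± 0.772 TPM (-0.25 ± 0.07). BACH2 also rose in both hairpin groups, to 9.52 ± 0.521 TPM in ARID2 knockdown cells (0.28 ± 0.06) and 19.1 ± 1.202 TPM in the labelled Aiolos libraries (1.21 ± 0.06), against 7.65 ± 0.350 TPM in control knockdown cells. Of 10 genes for NRF2 turnover, 6 rose and 3 fell at 72 h, with a median of 0.25 against 0.15, where 48.1% of all genes rose and 31.6% fell. SQSTM1, the autophagy receptor p62 that binds KEAP1, averaged 316 ± 28.8 TPM at 72 h against 188 ± 3.93 TPM in untreated cells (0.74 ± 0.05). It rose in both hairpin groups too, to 391 ± 8.06 TPM in ARID2 knockdown cells and 339.6 ± 22.8 TPM in the labelled Aiolos libraries, against 261 ± 5.34 TPM in control knockdown cells, which themselves lay 0.47 ± 0.05 above untreated cells.

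Other genes used as NRF2 targets did not move as a block. Of 24 tested, 9 rose and 12 fell at 72 h against untreated cells, where 48.1% of all genes rose and 31.6% fell. The median was -0.14 against 0.15 over all genes. EPHX1, microsomal epoxide hydrolase, averaged 385 ± 16.3 TPM at 72 h against 50.9 ± 3.24 TPM in untreated cells (2.90 ± 0.06), while the pentose phosphate enzyme gene PGD averaged 74.4 ± 2.52 against 157 ± 7.09 TPM (-1.06 ± 0.04) and the carbonyl reductase gene CBR3 2.54 ± 1.44 against 39.4 ± 1.86 TPM (-3.59 ± 0.20). From 48 to 72 h 14 of the 24 rose and 2 fell, where 31.6% of all genes rose and 16.5% fell. The median was 0.23 against 0.06. Those that rose included the glutathione reductase gene GSR (186 ± 8.29 against 126 ± 6.21 TPM), the transketolase gene TKT (121 ± 9.48 against 70.9 ± 0.602 TPM) and the malic enzyme gene ME1 (33.3 ± 1.67 against 22.7 ± 1.80 TPM). CBR3 and AKR1C3, an aldo-keto reductase with close relatives, fell in that step by 1.56 ± 0.20 and 0.89 ± 0.11.

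With the ARID2 hairpin 8 of the 24 rose and 9 fell, with a median of 0.01 against 0.02. These counts lie near the shares over all genes, 33.1% and 29.2%. PIR, the iron-binding protein pirin, averaged 40.5 ± 2.16 TPM against 9.41 ± 0.590 TPM in control knockdown cells (1.99 ± 0.13). SLC7A11, the cystine transporter, averaged 9.20 ± 0.324 TPM in ARID2 knockdown cells and 2.70 ± 0.438 TPM in the labelled Aiolos libraries, against 30.7 ± 2.30 TPM in control knockdown cells. Untreated cells had 4.04 ± 0.404 TPM of SLC7A11, so its fall in the hairpin groups was from a control far above untreated cells. In the labelled Aiolos libraries 9 of the 24 rose and 11 fell, where 37.2% of all genes rose and 30.7% fell. The median was -0.10 against 0.05.

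**Figure D4:**
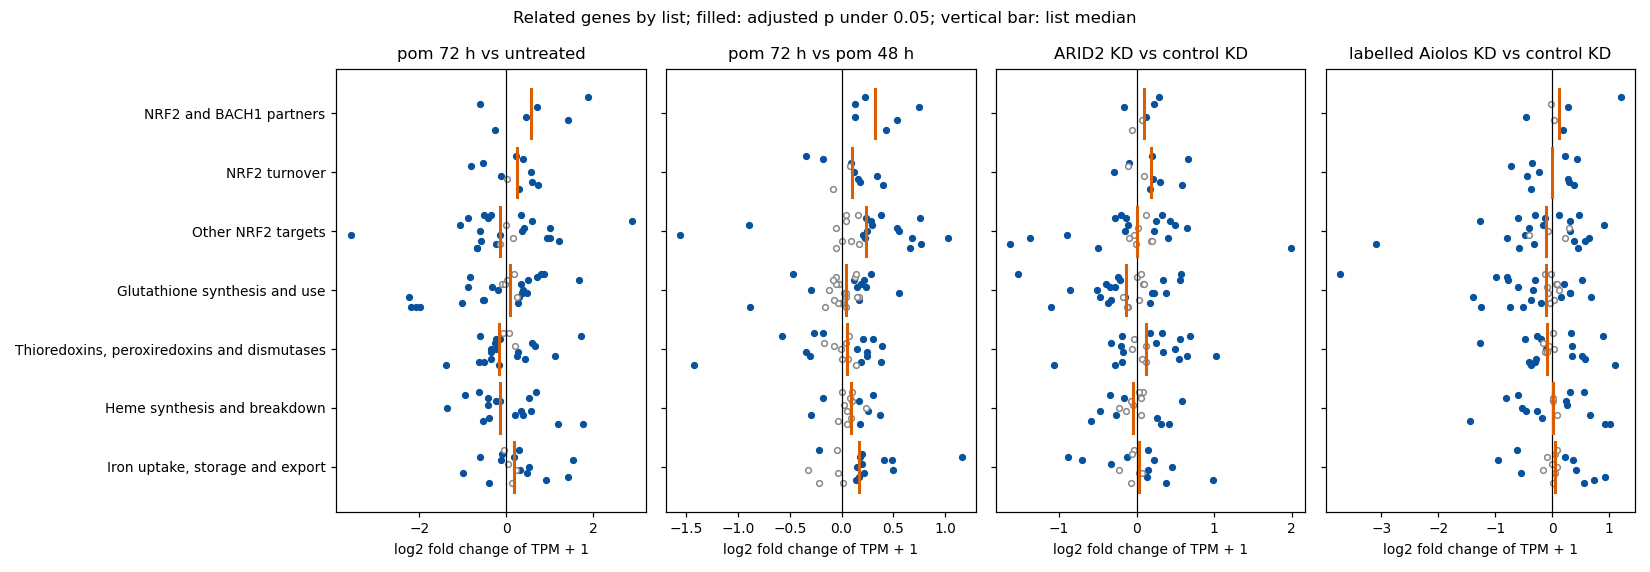
Log2 fold change of TPM + 1 of each tested gene (points) in 7 lists of related genes, in 4 comparisons, with list medians (vertical bars); filled points passed at an adjusted p under 0.05. The list of NRF2 and BACH1 partners, which also holds relatives of both, lies right of 0 from 48 to 72 h. There 6 of 6 rose, where 31.6% of all genes rose. Most other lists hold genes on both sides in every comparison.

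Glutathione genes were divided. Of 28 tested, 12 rose and 11 fell at 72 h against untreated cells, where 48.1% of all genes rose and 31.6% fell. The median was 0.09 against 0.15 over all genes. GGT7 averaged 20.9 ± 1.99 against 5.88 ± 0.624 TPM and the glutathione synthetase gene GSS 93.3 ± 2.21 against 65.0 ± 1.65 TPM, while the gamma-glutamyl cyclotransferase genes GGCT (34.5 ± 3.07 against 159.9 ± 4.08 TPM) and CHAC2 (16.7 ± 0.881 against 82.2 ± 4.15 TPM) fell. In the last drug step 8 rose, 3 fell and 17 did not pass, where 31.6% of all genes rose and 16.5% fell. Of 28, 7 rose and 13 fell with the ARID2 hairpin, with a median of -0.14 against 0.02, where 33.1% of all genes rose and 29.2% fell. In the labelled Aiolos libraries 6 rose and 13 fell, with a median of -0.11 against 0.05, where 37.2% of all genes rose and 30.7% fell. Of 22 thioredoxin, peroxiredoxin and dismutase genes, 7 rose and 12 fell at 72 h, with a median of -0.16 against 0.15, where 48.1% of all genes rose and 31.6% fell. TXNIP, an inhibitor of thioredoxin, averaged 704 ± 5.14 against 213 ± 8.82 TPM in untreated cells, and PRDX2 averaged 279 ± 9.99 against 429 ± 7.04 TPM. Between 48 and 72 h 8 of these genes rose and 6 fell, where 31.6% of all genes rose and 16.5% fell. TXN, the thioredoxin that TXNRD1 reduces, averaged 542 ± 63.2 against 413 ± 11.1 TPM (0.39 ± 0.06).

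Genes of heme handling around HMOX1 changed on both sides of the pathway. Of 17 tested, 8 rose and 9 fell at 72 h against untreated cells, where 48.1% of all genes rose and 31.6% fell. The median was -0.15 against 0.15. SLC48A1, which carries heme out of endolysosomes, averaged 83.5 ± 4.49 against 23.9 ± 1.02 TPM (1.76 ± 0.05), and BLVRA, which turns biliverdin into bilirubin, 322 ± 13.1 against 140 ± 4.31 TPM (1.19 ± 0.04). The heme exporter gene FLVCR1 fell, with 4.25 ± 1.11 against 12.3 ± 1.54 TPM (-1.36 ± 0.13). SLC48A1 and BLVRA also rose in ARID2 knockdown cells (0.32 ± 0.05 and 0.42 ± 0.04) and in the labelled Aiolos libraries (1.01 ± 0.05 and 0.94 ± 0.04). FECH, which inserts iron into protoporphyrin to form heme, averaged 32.9 ± 0.688 TPM in ARID2 knockdown cells and 17.8 ± 0.630 TPM in the labelled Aiolos libraries, against 49.9 ± 2.33 TPM in control knockdown cells. Over the last drug step 5 of the 17 rose and 2 fell, near the 31.6% and 16.5% of all genes. The other 10 did not pass, among them HMOX2 (0.09 ± 0.05, adjusted p = 0.111).

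Of 17 iron genes, 8 rose and 5 fell at 72 h against untreated cells, with a median of 0.19 against 0.15. These counts lie near the shares over all genes, 48.1% and 31.6%. PCBP2, an iron chaperone and RNA-binding protein, averaged 1327 ± 17.4 against 494 ± 5.36 TPM (1.42 ± 0.02). TFRC, the transferrin receptor, averaged 159.8 ± 1.02 TPM in untreated cells, 112 ± 2.49 at 24 h, 46.1 ± 2.05 at 48 h and 104 ± 1.95 at 72 h. It was thus lowest at 48 h and rose by 1.16 ± 0.04 from there to 72 h (adjusted p = 6.85e-14), where it was still below untreated cells. From 48 to 72 h 11 of the 17 rose and 1 fell, where 31.6% of all genes rose and 16.5% fell. The median was 0.17 against 0.06. In ARID2 knockdown cells 7 rose and 4 fell, where 33.1% of all genes rose and 29.2% fell. IREB2, which binds iron-responsive elements, averaged 18.3 ± 0.381 against 34.8 ± 0.523 TPM in control knockdown cells (-0.89 ± 0.06). In the labelled Aiolos libraries 6 rose and 3 fell, where 37.2% of all genes rose and 30.7% fell.

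Over the 7 group means of log2(TPM + 1), the genes most like HMOX1 among 10555 ranked were KLC1 (Pearson correlation 0.987), ABHD17A and SCAF8 (0.982 each), and EIF3G and COMMD5 (0.973 each). KLC1 averaged 19.7 TPM at 72 h against 11.7 TPM in untreated cells, so likeness here is of order and spacing and not of size. Among the 9 other genes of the pathway GCLC came closest (0.895, number 202) and then NQO1 (0.806, number 805), and SRXN1 was farthest (0.087). These values describe 7 points that share their libraries and have no test.

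Cell identity and RNA quality were checked beside these results. All 9 plasma cell markers lay above 1 TPM in every group, and their sum ran from 8851 to 9145 TPM at 72 h against 10807 to 10994 TPM in untreated cells. It ran from 10202 to 10618 TPM in ARID2 knockdown cells and from 6709 to 7078 TPM in the labelled Aiolos libraries, against 11534 to 11735 TPM in control knockdown cells. Of 10 macrophage and monocyte markers, which matter because macrophages hold much HMOX1, 4 lay above 1 TPM at 72 h against none in untreated cells. Their sum was 7.45 to 12.2 TPM at 72 h, 7.96 to 13.2 at 48 h and 5.42 to 8.50 at 24 h, against 0.934 to 3.17 TPM in untreated cells, while MARCO, MRC1, FCGR3A and S100A8 were listed at 0 in all 72 h libraries. Only 4 of these markers were tested. Of the 4, 3 rose at 72 h and none fell, with a median of 1.12 against 0.15 over all genes, of which 48.1% rose. At 48 h 4 of the 4 rose, with a median of 1.32 against 0.08, where 43.8% of all genes rose. In the hairpin groups the sum was 2.35 to 3.06 and 1.51 to 2.68 TPM, against 0.974 to 3.98 TPM in control knockdown cells. Of the 7 listed erythroid markers 2 or 3 exceeded 1 TPM, with sums of 140 to 153 TPM at 72 h against 121 to 133 TPM in untreated cells, mostly HBD. In the same list sums were 229 to 236 TPM in ARID2 knockdown cells and 44.4 to 54.1 TPM in the labelled Aiolos libraries, against 120 to 136 TPM in control knockdown cells. ALAS2 was listed at 0 in every drug and untreated library, and T and NK, stromal and epithelial markers summed to at most 5.72 TPM in any library. Mitochondrial mRNA held 13.7% ± 0.450 of listed TPM at 72 h against 15.5% ± 0.130 in untreated cells, and 18.5% ± 0.240 in ARID2 knockdown cells and 15.7% ± 0.838 in the labelled Aiolos libraries, against 17.2% ± 0.373 in control knockdown cells. The part of the plasma cell, macrophage, erythroid and mitochondrial shifts in the results was not tested. At 72 h, replicate 3 was the highest library for 7 of the 10 genes, replicate 2 for 2 and replicate 1 for 1, and pairs of these libraries correlated between 0.993 and 0.994 across genes.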

How the data were processed

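The authors deposited 1 table of TPM values, per its file header a column for each of 21 libraries, and every column was matched to its sample. The library kit was TruSeq RNA v2, per the labels' protocols, and it does not mark strand. The build is hg38, per the submitters' processing notes, and for aligner, quantifier and annotation the entry is "not given in the sources used here". TPM keeps no depth, so the depth of each library is unknown, and no counting intervals are given. The column sums ran from 951444 to 968652 TPM. The groups are described as biological replicates with no days or cultures given, so the spread behind each p-value may be technical.

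Values were analysed as log2(TPM + 1), which understates the change of low genes. Genes at 1 TPM or more in 3 or more libraries entered limma 3.58.1 under R 4.3.3, with 7 group means in 1 fit of all 21 libraries and empirical Bayes moderation with a trend (residual df 14, prior df 5.28). Of the 11 contrasts, 2 were differences between effects. Tests were two-sided, and p-values were adjusted by Benjamini-Hochberg over all 12559 genes of a contrast, with 0.05 as threshold. The fit was tested on simulated data. The simulated libraries were independent, so that test cannot show effects of shared cultures or of TPM being a share. Ratios were formed in each library and then averaged. Gene positions come from GENCODE 29, promoter windows from RefSeq on GRCh38.p14.

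The members, lists and comparisons were chosen with earlier results of these data known. Named throughout are the 10 genes, ARID2, IKZF3, HMOX2 and FTL. From each list and comparison described, names come from up to 3 genes a direction with the smallest p and at least 5 TPM in the higher group, and the 5 genes most like HMOX1. Lists are described by counts and medians with no list test, and were not rerun under the alternatives. Alternatives were a pseudocount of 0.1, no filter, a filter at 5 TPM, median-of-ratios scaling, quantile normalization, a replicate block, fits of only the groups compared and leaving out each library.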

Additional observations from a re-analysis of the deposited data

Results flagged for a closer look

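The levels of these genes differed between drug times, as log2 differences with standard errors, all past an adjusted p of 0.05 in limma. Time in drug and time in culture cannot be told apart in these steps. From 24 to 48 h HMOX1 (0.64 ± 0.12), NFE2L2 (0.19 ± 0.05) and BACH1 (0.18 ± 0.07) rose, and GCLM (-0.32 ± 0.12), FTH1 (-0.30 ± 0.04) and SRXN1 (-0.29 ± 0.07) fell. From 48 to 72 h all 10 rose: HMOX1 by 2.79 ± 0.12, GCLM by 1.16 ± 0.12, NQO1 by 1.05 ± 0.10, SRXN1 by 0.68 ± 0.07, TXNRD1 by 0.66 ± 0.05, GCLC by 0.54 ± 0.07, KEAP1 by 0.41 ± 0.04, BACH1 by 0.38 ± 0.07, NFE2L2 by 0.35 ± 0.05 and FTH1 by 0.22 ± 0.04. GCLM, FTH1 and SRXN1 thus changed direction between the 2 steps. The BACH1 value from 24 to 48 h did not pass without replicate 1 or 2 of either time (0.15 to 0.18), nor that of GCLM without 24 h replicate 2 or 3 or 48 h replicate 1 (-0.30 to -0.20) or fitted with only these groups.

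The drug effect at 72 h also differed from the hairpin effects. Over that of the ARID2 hairpin it was higher for HMOX1 (2.23 ± 0.16), NQO1 (1.51 ± 0.14), NFE2L2 (0.65 ± 0.07), BACH1 (0.59 ± 0.10), FTH1 (0.52 ± 0.05), GCLM (0.50 ± 0.17) and TXNRD1 (0.44 ± 0.07), and lower for KEAP1 (-0.23 ± 0.06). Over that of the labelled Aiolos libraries it was higher for HMOX1 (2.37 ± 0.16), NQO1 (1.63 ± 0.14), GCLM (0.98 ± 0.17), BACH1 (0.60 ± 0.10), TXNRD1 (0.55 ± 0.07), FTH1 (0.42 ± 0.05), KEAP1 (0.23 ± 0.06) and NFE2L2 (0.18 ± 0.07). The NFE2L2 value in the second set did not pass without untreated replicate 1 or 2, 72 h replicate 1, control replicate 2, or labelled Aiolos replicate 1 or 2 (0.15 to 0.18), or under either scaling (0.09 and 0.08), and that of KEAP1 did not pass under median-of-ratios scaling (0.13). The gap between the controls enters all these values. KEAP1 averaged 161 TPM at 72 h and 143 TPM in ARID2 knockdown cells, with control knockdown 0.40 ± 0.04 below untreated cells. NFE2L2 averaged 48.7 TPM at 72 h and 53.9 TPM in the labelled Aiolos libraries, with control knockdown 0.32 ± 0.05 above untreated cells. In both, the levels thus run against the sign of the difference between effects.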

How the results depend on the processing

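All 155 alternative counts of passing genes stayed within 1.5 times the reported ones. Of the 110 values of the 10 genes, 81 passed the test. A pseudocount of 0.1 and a filter at 5 TPM left the call and direction of all 110 as they were, and no filter lost 2 calls. Fits of only the groups compared lost 2 and gained 4. Median-of-ratios scaling kept 94 of the 110 and quantile normalization 96. Of 780 values with 1 library left out, 722 kept call and direction, 32 lost and 6 gained a call, and 20 changed sign.

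Signs changed only for values that had not passed in the reported fit. With median-of-ratios scaling these were NFE2L2 at 24 h (-0.022), BACH1 at 48 h (-0.056), GCLC from 24 to 48 h (-0.018), FTH1 in control knockdown against untreated cells (0.021) and SRXN1 in the drug effect over the ARID2 hairpin effect (-0.042). With quantile normalization they were KEAP1 at 48 h (0.028), FTH1 at 48 h (0.10), GCLC from 24 to 48 h (-0.00053) and FTH1 in control knockdown against untreated cells (0.030). At 48 h FTH1 passed as a rise under quantile normalization (adjusted p = 0.0120) and as a fall under median-of-ratios scaling (-0.083, adjusted p = 0.0437). KEAP1 at 48 h passed as a fall under median-of-ratios scaling (-0.17, adjusted p = 0.00285). With 1 library left out, FTH1 at 48 h ran from -0.020 to 0.016, BACH1 at 48 h from -0.019 to 0.043, FTH1 in control knockdown against untreated cells from -0.046 to 0.0094, NQO1 from 24 to 48 h from -0.087 to 0.047 and GCLC in that step from -0.047 to 0.038. BACH1 in ARID2 knockdown against labelled Aiolos knockdown ran from -0.059 to 0.11, and SRXN1 in the drug effect over the ARID2 and the labelled Aiolos effects from -0.030 to 0.15 and from -0.13 to 0.056. The cause was not tested.

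A replicate block changed no call or direction of the 110 values and gave 10005 passing genes at 72 h against untreated cells and 5974 from 48 to 72 h. The libraries share only a number: deviations of same-numbered libraries correlated between -0.125 and 0.110, with 1 of 63 pairs above 0.1.

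Limits are that depth is unknown, that TPM is a share, that untreated cells were collected at 1 time, and that the protein of neither hairpin target, NRF2 nor BACH1 was measured.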
